A study of Mus musculus with 8 samples.

Results

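In all, 10 genes of the primitive endoderm were followed in mouse embryonic stem cells through the histone mark H3K27ac, acetylation of lysine 27 of histone H3, which marks active promoters and enhancers. They were the transcription factor genes Gata4, Gata6 and Sox17, the receptor gene Pdgfra, the basement membrane genes Col4a1, Col4a2, Lamb1 and Lama1, and the endocytosis genes Dab2 and Cubn. All 10 genes were found in the RefSeq table, out of 21887 protein-coding genes on the chromosomes used. A locus is the RefSeq gene interval with 50 kb added on each side. Col4a1 and Col4a2 lie head to head and share 1 window, which leaves 9 loci of 21886. Peaks of the 4 libraries that overlapped by at least 1 bp were merged into 82792 union regions, and 57 of these overlap the 9 loci.

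The chromatin came from E14tg2a cells, an embryonic stem cell line of 129SV background. They stably carried cRAF-ErT2, in which the kinase RAF can be switched on by 4-hydroxytamoxifen (4OHT) and then acts upstream of the kinase ERK. Treated cells received 250 nM 4OHT for 2 h and untreated cells none, with clones a and b in each, so that each group holds 2 libraries. Both groups grew in serum with LIF and 2 uM Chir99021, an inhibitor of GSK3, and for the last 24 h in serum with LIF and the FGF receptor inhibitor PD173074 at 250 nM. The untreated cells are labelled with no vehicle, so effects of 4OHT itself and of ERK cannot be told apart, and ERK activity was not measured in these data.

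The primitive endoderm is the extraembryonic layer that forms beside the epiblast in the blastocyst. FGF signalling through ERK drives inner cell mass cells towards it, with GATA6 as the earliest factor and GATA4 and SOX17 following, while NANOG holds cells in the epiblast. The mature layer secretes collagen IV and laminin into its basement membrane and takes up nutrients with endocytic receptors, among them cubilin with its adaptor DAB2.

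The 4 lists held 59170 to 63276 peaks covering 50.4 to 53.1 Mb. They give peak positions and a score but no reads, so the depth is unknown and a missing peak does not show that the mark was absent. In a list of peaks, weaker acetylation in all cells and acetylation in fewer cells cannot be told apart. All 7 loci chosen as markers of pluripotent cells carried peaks, with summed covered lengths of 203 and 189 kb in treated clones a and b, against 197 and 180 kb in untreated clones a and b. The sums hide differences in both directions. Pou5f1, Esrrb and Zfp42 were longer in both treated libraries than in both untreated ones. Tfcp2l1 and Klf4 were shorter in both, and at Sox2 and Nanog the groups overlap. The 6 fibroblast loci summed to 12.7 and 14.6 kb in treated clones a and b, against 11.3 and 12.1 kb in untreated clones a and b. Postn had no peak in any library, while Twist1 had 1.66 and 2.12 kb in treated clones a and b, against 0 kb in both untreated clones. Col1a1 had 7.08 and 7.49 kb in treated clones a and b, against 6.09 and 6.14 kb in untreated clones a and b. Col3a1 differed in the other direction. It had 2.95 and 2.87 kb in treated clones a and b, against 4.28 and 3.97 kb in untreated clones a and b. At Col1a2 and Thy1 the groups overlap. The part of other cells in the results was not tested.

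The value compared at each locus was the length covered by peaks, in log2(covered bp + 500). It was fitted with limma over the 16048 loci with a mean of at least 1000 bp, with Benjamini-Hochberg adjustment over all of them and a threshold of 0.05. Of the 9 loci 6 passed the filter on length, and Gata6, Sox17 and Pdgfra did not. Lamb1 was the 1 locus that fell, against 2.85% of all tested loci, and 0 rose, against 4.00% of all (6.85% in either direction). At unadjusted p under 0.05, 3 were shorter (Col4a1/Col4a2, Lamb1 and Dab2), against 10.8% of all tested loci, and 1 was longer (Cubn), against 17.0% of all. Both treated libraries lay below both untreated ones at 3 of the 6, against 21.7% of all tested loci, and above them at 1, against 37.1% of all. The median log2 change of the 6 was -0.28, beside 0.08 for all tested loci. With clone as a factor 3 loci passed as shorter (Col4a1/Col4a2, Lamb1 and Dab2) and 1 as longer (Cubn), but that fit called 15.5% of all loci shorter and 22.7% longer.

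**Figure D1:**
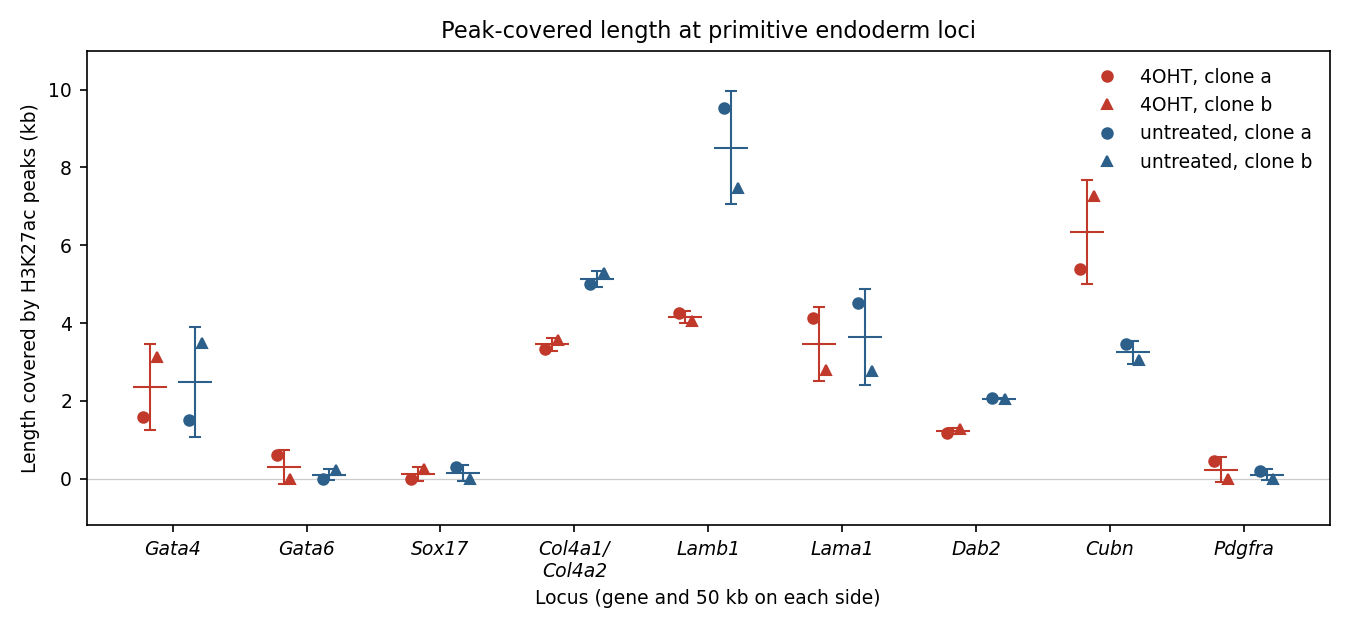
Length covered by H3K27ac peaks at each locus, in kb, with a circle for clone a and a triangle for clone b, and the mean with its SD (n = 2). At Lamb1, Col4a1/Col4a2 and Dab2 both treated libraries lie below both untreated ones, and at Cubn both lie above.

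Regions that appeared or disappeared at these loci were few. Each overlapped a gene, as most regions of these gene-centred windows did, with 18 of all 57 between genes. A region is named gained where both treated lists and no untreated list hold it, and lost in the reverse case. Of the 57 regions 4 were gained (7.02%, against 6.20% of all union regions) and 3 were lost (5.26%, against 6.26% of all), so both shares were near the background. The gained regions were 3 within Cubn and 1 across an end of the neighbouring gene Rab20. The lost ones were 2 within Col4a1 and 1 within Lamb1. Another 16 regions (28.1%, against 36.4% of all) were called in all 4 libraries, and 24 (42.1%, against 32.5% of all) in a single library. Of the 16 shared regions, covered length was lower in both treated libraries than in both untreated ones at 4 (25.0%, against 21.5% of all shared regions) and higher at 4 (25.0%, against 27.3%), so these shares too lay near the background.

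The transcription factor loci Gata6 and Sox17 had almost no peaks. By mean covered length they stood at percentiles 17.3 and 16.4 of all loci, of which 13.7% had no peak in any library. At Gata6, whose product is the first factor of the lineage, peaks covered 0.607 and 0 kb in treated clones a and b, against 0 and 0.212 kb in untreated clones a and b. The 3 regions of this locus were each called in 1 library, with score percentiles of 7.42 to 27.1 within their list. The one nearest an end of the gene, on chromosome 18 (11054081 to 11054487, mm10), lay 1.77 kb inside the lower-coordinate end and appeared in treated clone a alone. At Sox17, which encodes an SRY-type factor that acts after GATA6, treated clones a and b had 0 and 0.258 kb and untreated clones a and b had 0.290 and 0 kb. Its peaks came from a different clone in each group, and they sat at different places, one within the gene and one 19.04 kb outside it.

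Gata4, which encodes the second GATA factor of the lineage, passed the filter through its neighbours. The locus had 1.576 and 3.138 kb in treated clones a and b, against 1.496 and 3.490 kb in untreated clones a and b (log2 change -0.04 ± 0.43 SE, limma adjusted p = 0.966). The groups overlap, and clone b was the longer in both. Within the Gata4 gene itself, peaks covered 0 and 0.612 kb in treated clones a and b, against 0 and 0.284 kb in untreated clones a and b. The rest lay on Fdft1, which encodes squalene synthase, and across an end of Neil2, which encodes a DNA repair glycosylase. The region within Fdft1 (chromosome 14, 63178132 to 63178848) was called in all libraries with score percentiles of 74.3 and 89.7 in treated clones a and b, against 76.0 and 94.5 in untreated clones a and b. That at Neil2 (63192728 to 63194580) covered 945 and 1634 bp in treated clones a and b, against 944 and 1536 bp in the untreated clones a and b. A further 3 regions within Fdft1 were absent from clone a: 2 of 287 and 471 bp in untreated clone b alone, and 1 of 201 bp in treated and 226 bp in untreated clone b. In the Gata4 gene body only clone b had peaks: one at 63255655 to 63256022 in both treatments (360 bp treated, 284 bp untreated), and one at 63245005 to 63245256 in treated cells (252 bp).

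Pdgfra encodes a receptor tyrosine kinase that marks primitive endoderm precursors. Its locus had 0.452 and 0 kb in treated clones a and b, against 0.201 and 0 kb in untreated clones a and b. No peak lay in the gene or at its start site, and both regions sat 11.4 and 12.5 kb beyond its end. In a fit with no filter on length, the log2 changes of Gata6, Sox17 and Pdgfra were 0.32, -0.03 and 0.22, with limma adjusted p of 0.709, 0.971 and 0.778, on short peaks.

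**Figure D2:**
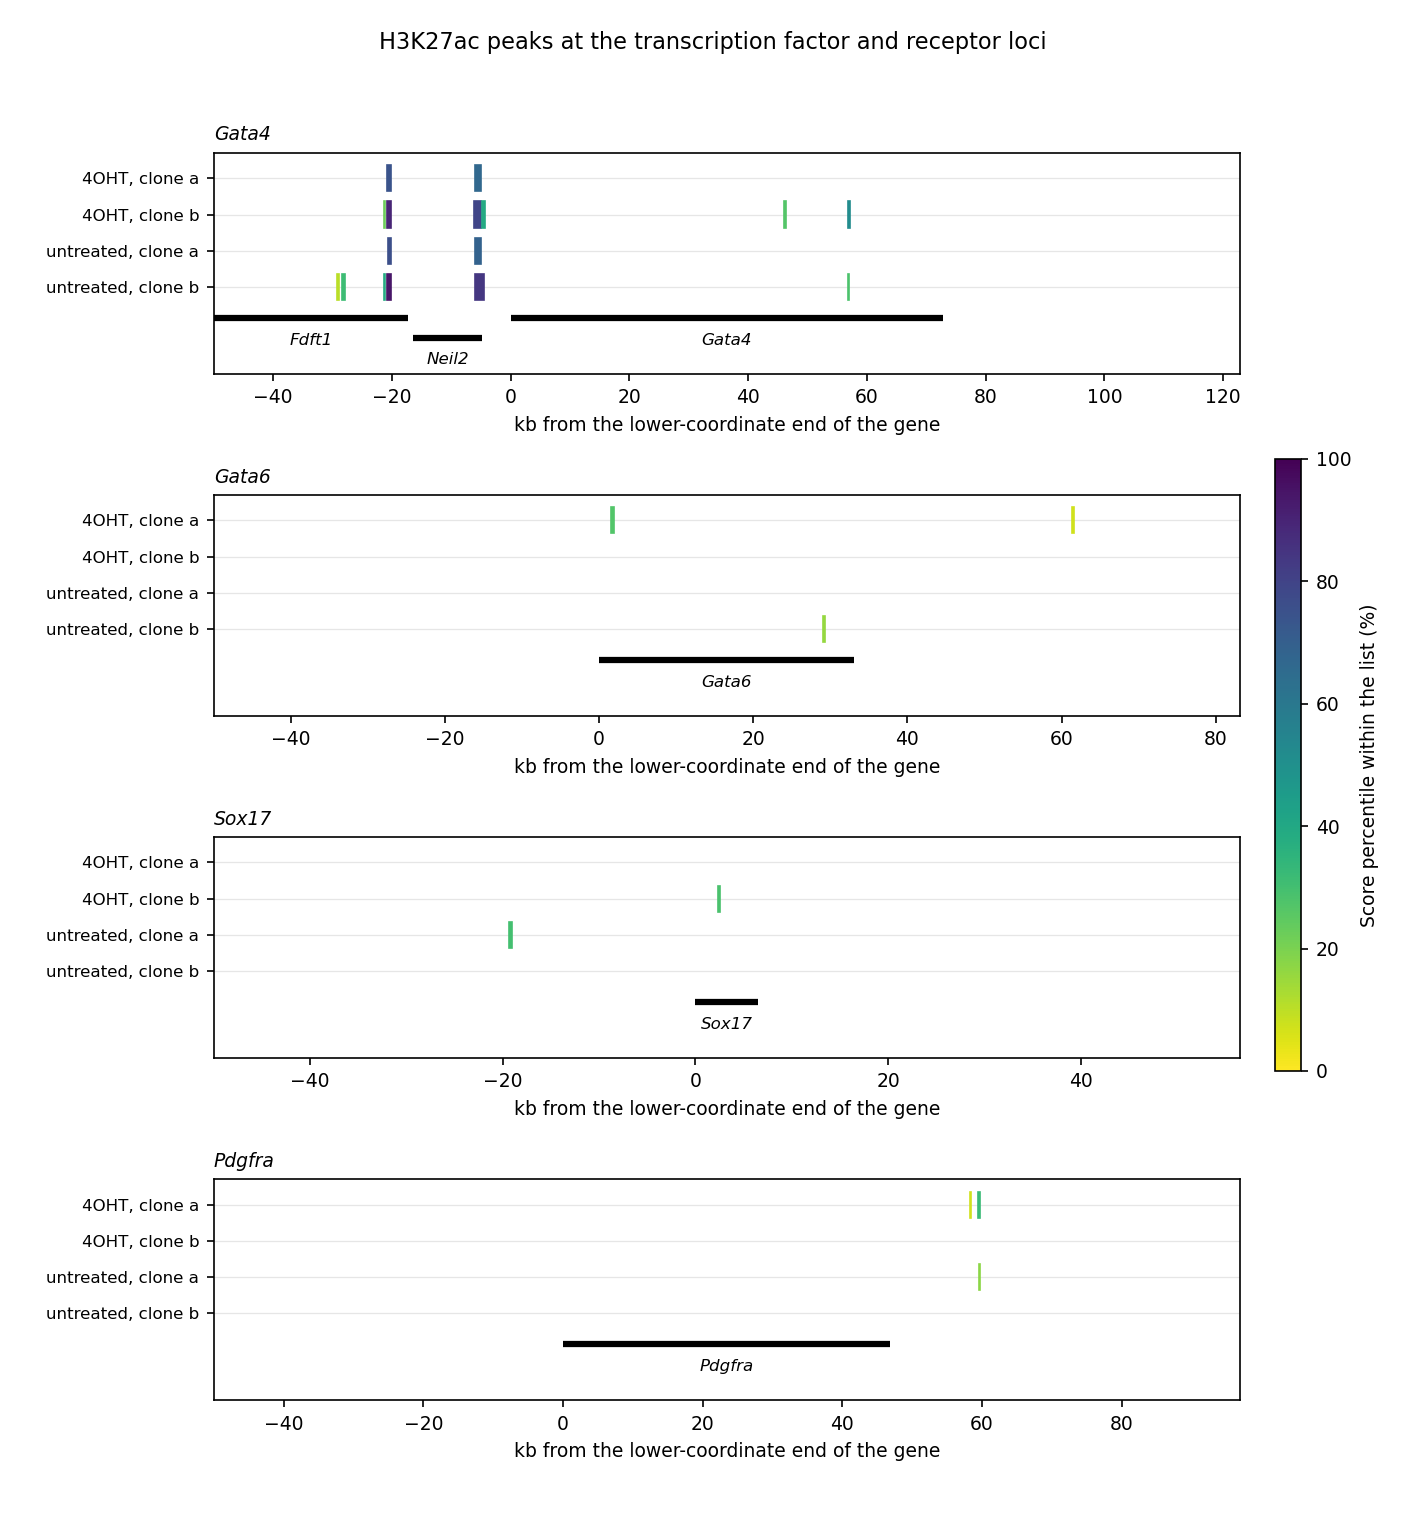
Peaks of each library at the Gata4, Gata6, Sox17 and Pdgfra loci, by distance in kb from the lower-coordinate end of the gene and coloured by the percentile of the authors' score within each list; black bars are protein-coding genes, and peaks narrower than the outline are drawn at its width. The peaks found in all 4 libraries lie on Fdft1 and Neil2, beside Gata4.

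Collagen IV is the network-forming collagen of basement membranes, and its alpha 1 and alpha 2 chains are transcribed in opposite directions from a shared promoter. At the shared window peaks covered 3.34 and 3.56 kb in treated clones a and b, against 4.99 and 5.28 kb in untreated clones a and b. Both treated libraries were shorter than both untreated ones, with close agreement within each group. The difference did not pass the threshold (log2 change -0.51 ± 0.14 SE, limma adjusted p = 0.0864). It passed with clone as a factor (limma adjusted p = 0.0141), in a fit that called 15.5% of all loci shorter. Within both collagen genes alone, covered length was 0.734 and 1.25 kb in treated clones a and b, against 3.31 and 3.93 kb in untreated clones a and b. The neighbours Rab20 and Naxd together differed in the other direction, with 2.60 and 2.31 kb in treated clones a and b, against 1.69 and 1.35 kb in untreated clones a and b. With a window of 10 kb on each side, which leaves out most of these neighbours, the log2 change was -1.48 (limma adjusted p = 0.0349), and for the gene interval alone, chosen after the data were seen, it was -1.48 and did not pass (limma adjusted p = 0.0606). A fit with a separate window for each gene, with 50 kb on each side, was made after the data were seen. It called 2.87% of all loci shorter. These windows overlap, and both hold the shared promoter and the lost regions of Col4a1, so their values are not independent. The Col4a1 window fell to 0.857 ± 0.173 kb in treated cells, against 3.62 ± 0.436 kb in untreated cells (SD, n = 2, log2 change -1.60, limma adjusted p = 0.0259). The Col4a2 window, which also holds Rab20 and part of Naxd, had 3.31 ± 0.356 kb in treated cells and 4.58 ± 0.333 kb in untreated cells (log2 change -0.42, limma adjusted p = 0.158).

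The lost regions of this window lay within Col4a1, near its start. A pair of regions on chromosome 8 (11307797 to 11308746 and 11309001 to 11310119) lay with their midpoints 4.55 and 3.27 kb downstream of the Col4a1 start site. Together they covered 0 kb in both treated clones, against 1.42 and 1.92 kb in untreated clones a and b. Both regions were lost under the definition above, and in the untreated lists their best peaks stood at score percentiles of 69.0 and 25.1 for the first and 72.8 and 62.7 for the second. A further region deep within Col4a1 (11226962 to 11227674) had 281 and 0 bp in treated clones a and b, against 652 and 467 bp in the untreated clones a and b. The region over the shared promoter itself (11311871 to 11313461) was called in all libraries. It covered 453 and 979 bp in treated clones a and b, against 1238 and 1540 bp in the untreated clones a and b, so the treated peaks were the narrower. Its score percentiles were 63.3 and 69.8 in treated clones a and b, against 29.7 and 55.0 in untreated clones a and b. Both treated ranks lay above both untreated ones, while the treated peaks were narrower. Ranks within a list are given as a description, and a change in them was not tested.

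The promoter windows of both genes are shown because these peaks cover them unequally. Each runs from 250 bases before to 50 after the RefSeq start site (GRCm38.p6, 5′ to 3′ on the gene's own strand), and the 2 windows overlap by 78 bp in opposite orientation. Capitals mark matches on either strand to any of 9 motifs that were searched: AGATAA and TGATAA for GATA factors, ACAAAG and ACAATG for SOX factors, TGANTCA for AP-1, CCGGAA for ETS factors, GGGCGG for SP and KLF factors, CCAAT for the CCAAT box and TATAAA for the TATA box.
Col4a1 (chr8:11312777-11313076, minus strand): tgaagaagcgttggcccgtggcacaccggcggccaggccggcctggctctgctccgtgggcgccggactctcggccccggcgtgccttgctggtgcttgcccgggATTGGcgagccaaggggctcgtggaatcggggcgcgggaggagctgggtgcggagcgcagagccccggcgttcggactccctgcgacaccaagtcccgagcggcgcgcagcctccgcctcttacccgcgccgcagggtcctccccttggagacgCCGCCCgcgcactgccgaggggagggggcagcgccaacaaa
Col4a2 (chr8:11312555-11312854, plus strand): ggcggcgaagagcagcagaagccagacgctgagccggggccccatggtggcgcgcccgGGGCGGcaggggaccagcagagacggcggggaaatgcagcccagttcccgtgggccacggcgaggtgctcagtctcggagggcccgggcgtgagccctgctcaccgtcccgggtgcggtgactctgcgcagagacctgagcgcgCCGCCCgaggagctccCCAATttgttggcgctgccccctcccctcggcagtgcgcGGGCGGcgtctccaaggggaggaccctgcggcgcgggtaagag
Peaks covered 8 and 148 bp of the Col4a1 window in treated clones a and b, against 242 and 300 bp in the untreated clones a and b. Of the Col4a2 window they covered 230 and 259 bp in treated clones a and b, against 197 and 300 bp in the untreated clones a and b. Both treated libraries covered less of the Col4a1 window than both untreated ones did, while the groups overlap over the Col4a2 window. Both windows are rich in G and C (74.0 and 73.7%, against a median of 52.7% over 32851 promoter windows), with 37 and 33 CpG dinucleotides against a median of 7. Col4a1 held 1 match to GGGCGG and Col4a2 held 3, a motif found in 35.7% of all windows, and each held 1 match to CCAAT, found in 37.4% of all. Neither held the letters searched for GATA, SOX, AP-1 or ETS factors or the TATA box.

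The further regions of this window lay at other genes or within Col4a2. Across the upper-coordinate end of Rab20, which encodes a small GTPase of endosomes and phagosomes, the gained region (11478289 to 11478649) covered 333 and 340 bp in treated clones a and b and nothing in untreated cells. Its score percentiles were 39.9 and 14.0, low within both lists. Across the lower-coordinate end of Naxd, which encodes an enzyme that repairs hydrated NADH, the region (11496664 to 11498934) covered 2271 and 1745 bp in treated clones a and b, against 1685 and 1354 bp in the untreated clones a and b. It ranked highest of this window, at percentiles of 87.2 to 95.4 in the 4 lists. The remaining regions, 1 within Col4a2 (11381652 to 11381920) and 1 within Rab20 (11477973 to 11478200), were called in treated clone b alone.

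Laminin is the other network of the basement membrane, a trimer of an alpha, a beta and a gamma chain. Lamb1, which encodes the beta 1 chain, had 4.27 and 4.05 kb in treated clones a and b, against 9.53 and 7.48 kb in untreated clones a and b. The treated libraries lay close together and well under both untreated ones. Covered length fell to 4.16 ± 0.153 kb in treated cells, against 8.51 ± 1.45 kb in untreated cells (SD, n = 2; log2 change -0.94 ± 0.16 SE, limma adjusted p = 0.0389). The change was -1.07 in clone a and -0.81 in clone b. Without treated clone a, treated clone b or untreated clone a it was -0.98, -0.91 and -0.78, with limma adjusted p of 0.105, 0.102 and 0.120, and the call was lost. It was also lost with no filter on length (limma adjusted p = 0.0503), with a window of 10 kb (-0.56, adjusted p = 0.0933) and in the upper 50% of each list by score (-0.88, adjusted p = 0.0806).

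Most of the difference in length lay upstream of Lamb1, away from other protein-coding genes. A stretch of 5 regions spanning 18.1 kb (chromosome 12, 31222068 to 31240164), with midpoints 25.7 to 42.5 kb upstream of the start site, covered 2.28 and 1.93 kb in treated clones a and b. In untreated clones a and b it covered 6.61 and 4.30 kb. This stretch was delimited after its values were seen, and so is given with no test. The widest region of the locus (31224133 to 31226814) covered 1536 and 1285 bp in treated clones a and b, against 2552 and 2414 bp in the untreated clones a and b, with percentiles of 80.5 to 94.7 in the 4 lists. Beside it, the region at 31228483 to 31229242 covered 384 and 423 bp in treated clones a and b, against 760 and 509 bp in the untreated clones a and b. Both were called in all libraries and were narrower in both treated ones.

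The other upstream regions of Lamb1 were mostly called in untreated cells. That at 31222068 to 31223604 had 0 and 224 bp in treated clones a and b, against 1537 and 554 bp in the untreated clones a and b. At 31238977 to 31240164 peaks covered 362 and 0 bp in treated clones a and b, against 1188 and 826 bp in the untreated clones a and b. In each, 1 treated clone had a short peak, clone b in the first and clone a in the second, and neither region counts as lost. Short peaks at 31236944 (571 bp) and 31261067 (207 bp) were called in untreated clone a alone, and one at 31217792 (215 bp) in untreated clone b alone.

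Inside Lamb1 a similar difference stood at a pair of regions 27.9 and 29.2 kb downstream of the start site. Together (31292985 to 31295219) they covered 0.406 and 0 kb in treated clones a and b, against 1.34 and 1.37 kb in untreated clones a and b. The first of them, which was lost, was weak where it was called, with percentiles of 0.393 and 15.9 in untreated clones a and b. The second had percentiles of 72.8 and 62.1 in untreated clones a and b and of 15.8 in treated clone a.

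The start of Lamb1 differed in the opposite direction. The region there (31265257 to 31266666) covered 973 and 1408 bp in treated clones a and b, against 819 and 850 bp in the untreated clones a and b. Both treated peaks were the wider, while the locus as a whole was shorter. Its percentiles were 79.4 and 86.0 in treated clones a and b, against 34.0 and 62.7 in untreated clones a and b. These ranks too are a description within each list and were not tested. The promoter window is shown because the peaks begin within it.
Lamb1 (chr12:31265043-31265342, plus strand): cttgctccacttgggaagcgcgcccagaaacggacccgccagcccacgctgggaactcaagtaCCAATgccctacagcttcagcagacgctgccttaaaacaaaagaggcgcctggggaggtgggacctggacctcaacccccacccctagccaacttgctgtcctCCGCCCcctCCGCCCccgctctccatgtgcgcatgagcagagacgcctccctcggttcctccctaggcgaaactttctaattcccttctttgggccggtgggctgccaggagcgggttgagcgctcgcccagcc
Peaks covered 85 and 84 bp of these bases in treated clones a and b, against 86 and 28 bp in the untreated clones a and b, all within its last 86 bases. The window holds 63.7% G and C and 18 CpG dinucleotides, with 2 neighbouring matches to GGGCGG and 1 to CCAAT. The letters searched for GATA, SOX, AP-1 and ETS factors are not in it. At the far end of the locus the region within Dld, which encodes a subunit shared by mitochondrial dehydrogenase complexes, covered 606 and 711 bp in treated clones a and b, against 562 and 744 bp in the untreated clones a and b, and the groups overlap.

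**Figure D3:**
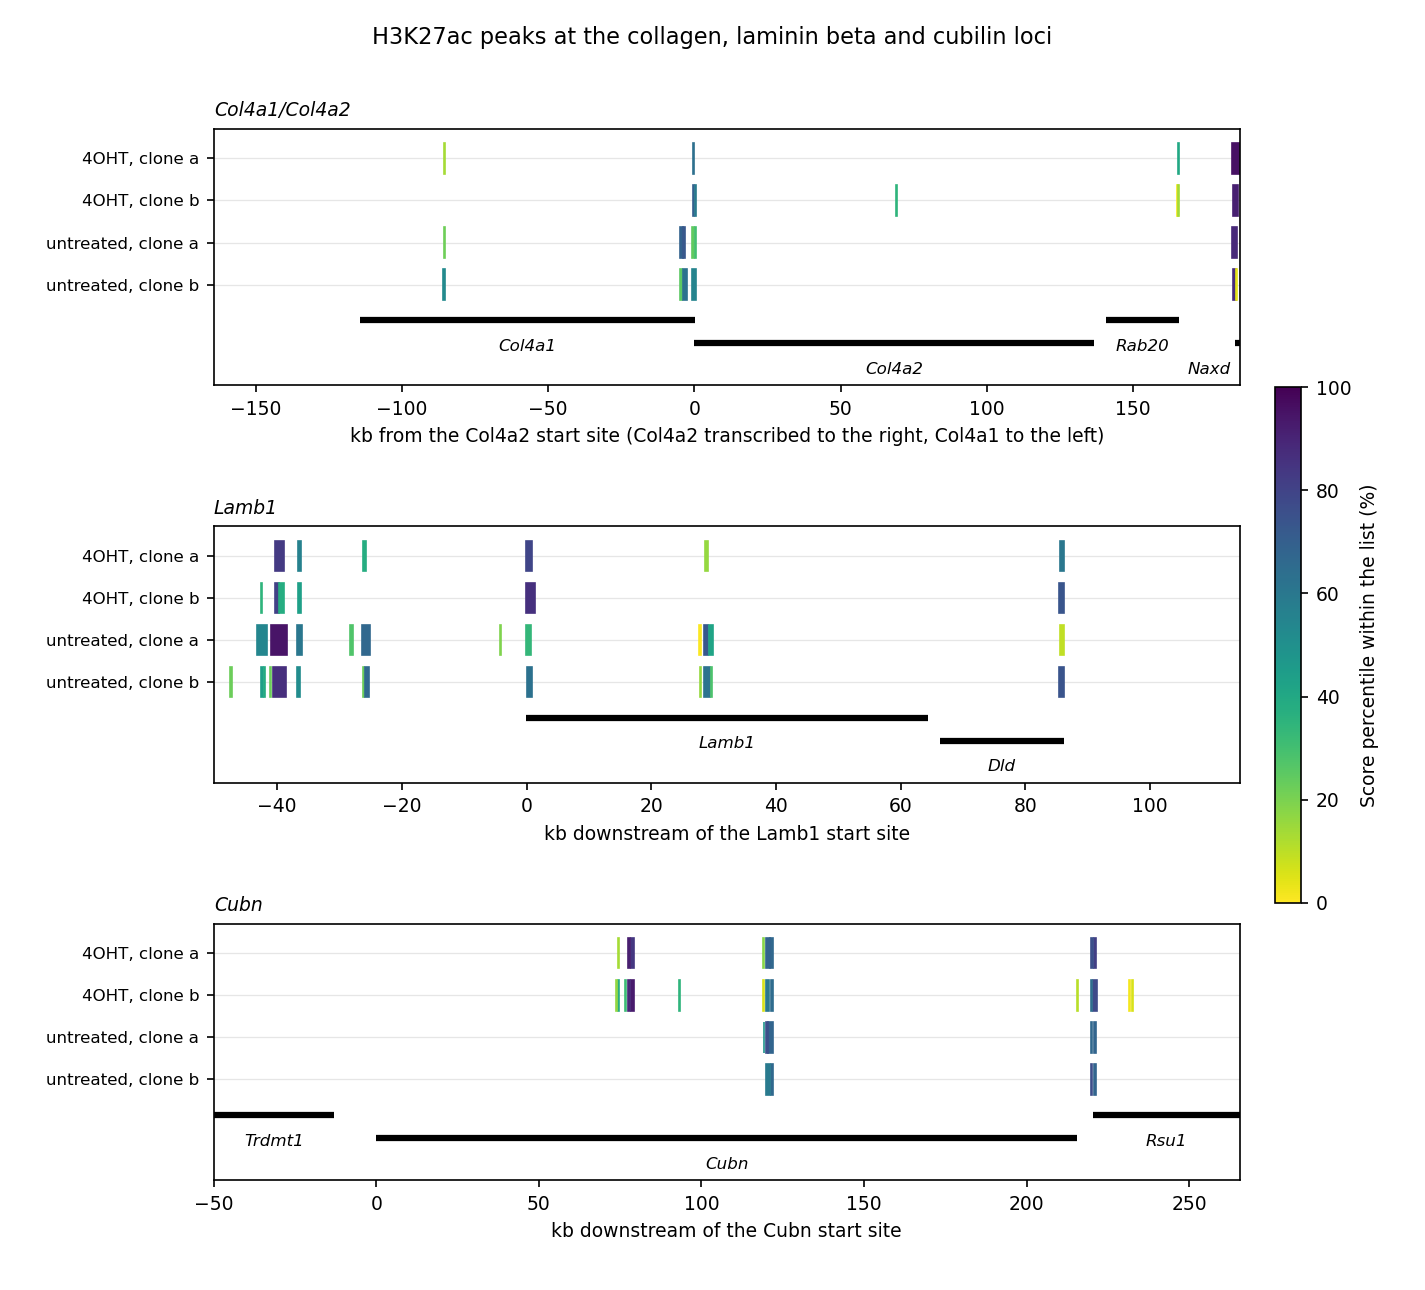
Peaks of each library at the Col4a1/Col4a2, Lamb1 and Cubn loci, by distance in kb from a start site and coloured by the percentile of the authors' score within each list; black bars are protein-coding genes, and peaks narrower than the outline are drawn at its width. The lost pair of regions inside Col4a1 (1.42 and 1.92 kb) is seen in untreated cells alone. Peaks upstream of Lamb1 are longer in untreated cells, and the group inside Cubn (1.91 and 2.76 kb) is seen in treated cells alone.

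By covered length over the 4 libraries, the loci over 1 Mb away that lay nearest to Lamb1 were Impg1, Hoxc13 and Hoxc12, at Euclidean distances of 0.13, 0.14 and 0.17 in log2(covered bp + 500). Hoxc12 and Hoxc13 are neighbours. With 4 libraries and 21886 loci such distances describe a similar level and difference and no more.

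Lama1, which encodes the alpha chain of laminin 111, an early laminin of the embryo, had close to equal covered lengths in both groups. Its locus had 4.13 and 2.79 kb in treated clones a and b, against 4.52 and 2.77 kb in untreated clones a and b (log2 change -0.05 ± 0.28 SE, limma adjusted p = 0.923). The groups overlap, and clone a was the longer in both. Nearly all of it lay around the lower-coordinate end of the gene, on chromosome 17. The strongest region there (67694092 to 67695890), 1.24 kb outside the gene, covered 1795 and 1581 bp in treated clones a and b, against 1793 and 1613 bp in the untreated clones a and b. Another (67692628 to 67693710) had 725 and 457 bp in treated clones a and b, against 1005 and 651 bp in the untreated clones a and b. Just within the gene (67697265 to 67697989) peaks covered 546 and 555 bp in treated clones a and b, against 684 and 506 bp in the untreated clones a and b.

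The clones differed at the end of Lama1 more than the treatments did. The region across that end (67696056 to 67697177) was called in clone a alone, with 797 bp in treated and 837 bp in untreated cells. Single short peaks of 200 to 267 bp elsewhere in the locus were each called in 1 library.

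DAB2 is an endocytic adaptor for receptors of the LDL receptor family and for cubilin. Its locus had 1.16 and 1.27 kb in treated clones a and b, against 2.08 and 2.05 kb in untreated clones a and b. Both treated libraries were shorter and each group was tight, yet the difference did not pass the threshold (log2 change -0.58 ± 0.19 SE, limma adjusted p = 0.133). With clone as a factor it passed (limma adjusted p = 0.0446), in a fit that called 15.5% of all loci shorter. A pair of neighbouring regions lay 40.1 and 39.1 kb upstream of the first start site on chromosome 15. The first (6259381 to 6259918) had 0 and 303 bp in treated clones a and b, against 475 and 538 bp in the untreated clones a and b. The second (6260210 to 6261098) had 739 and 661 bp in treated clones a and b, against 725 and 889 bp in the untreated clones a and b, and was the highest-ranked of the locus in each list, at percentiles of 63.4 to 77.6. A short peak at 6275985 (301 bp) was called in untreated clone a alone.

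Acetylation within Dab2 sat at the later of its 2 RefSeq start sites. The region over it (6386332 to 6387004) covered 424 and 305 bp in treated clones a and b, against 574 and 618 bp in the untreated clones a and b. It was called in all libraries and was narrower in both treated ones. No library had a peak over the first start site. Both windows are shown for this contrast.
Dab2, first start (chr15:6299539-6299838, plus strand): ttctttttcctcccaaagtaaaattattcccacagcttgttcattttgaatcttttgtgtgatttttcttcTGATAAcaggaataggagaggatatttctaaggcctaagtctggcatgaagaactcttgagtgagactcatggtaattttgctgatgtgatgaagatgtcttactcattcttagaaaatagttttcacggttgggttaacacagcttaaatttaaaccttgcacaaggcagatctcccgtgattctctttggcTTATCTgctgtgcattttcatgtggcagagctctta
Dab2, second start (chr15:6386498-6386797, plus strand): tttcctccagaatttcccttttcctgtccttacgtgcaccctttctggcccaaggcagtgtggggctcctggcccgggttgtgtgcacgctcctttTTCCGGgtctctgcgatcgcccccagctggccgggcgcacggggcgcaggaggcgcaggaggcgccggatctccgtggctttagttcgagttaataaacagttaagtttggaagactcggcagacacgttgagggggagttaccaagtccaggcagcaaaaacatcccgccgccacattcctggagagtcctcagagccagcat
The window without peaks holds 37.7% G and C and 2 CpG dinucleotides, with 1 match each to TGATAA and AGATAA, found in 9.05% and 11.2% of all windows. The window with peaks holds 59.3% and 19, with 1 match to CCGGAA, found in 14.9% of all windows. Peaks covered 300 and 115 bp of the second window in treated clones a and b, against 201 and 300 bp in the untreated clones a and b, and the groups overlap. No region lay on C9, the complement gene beside Dab2.

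**Figure D4:**
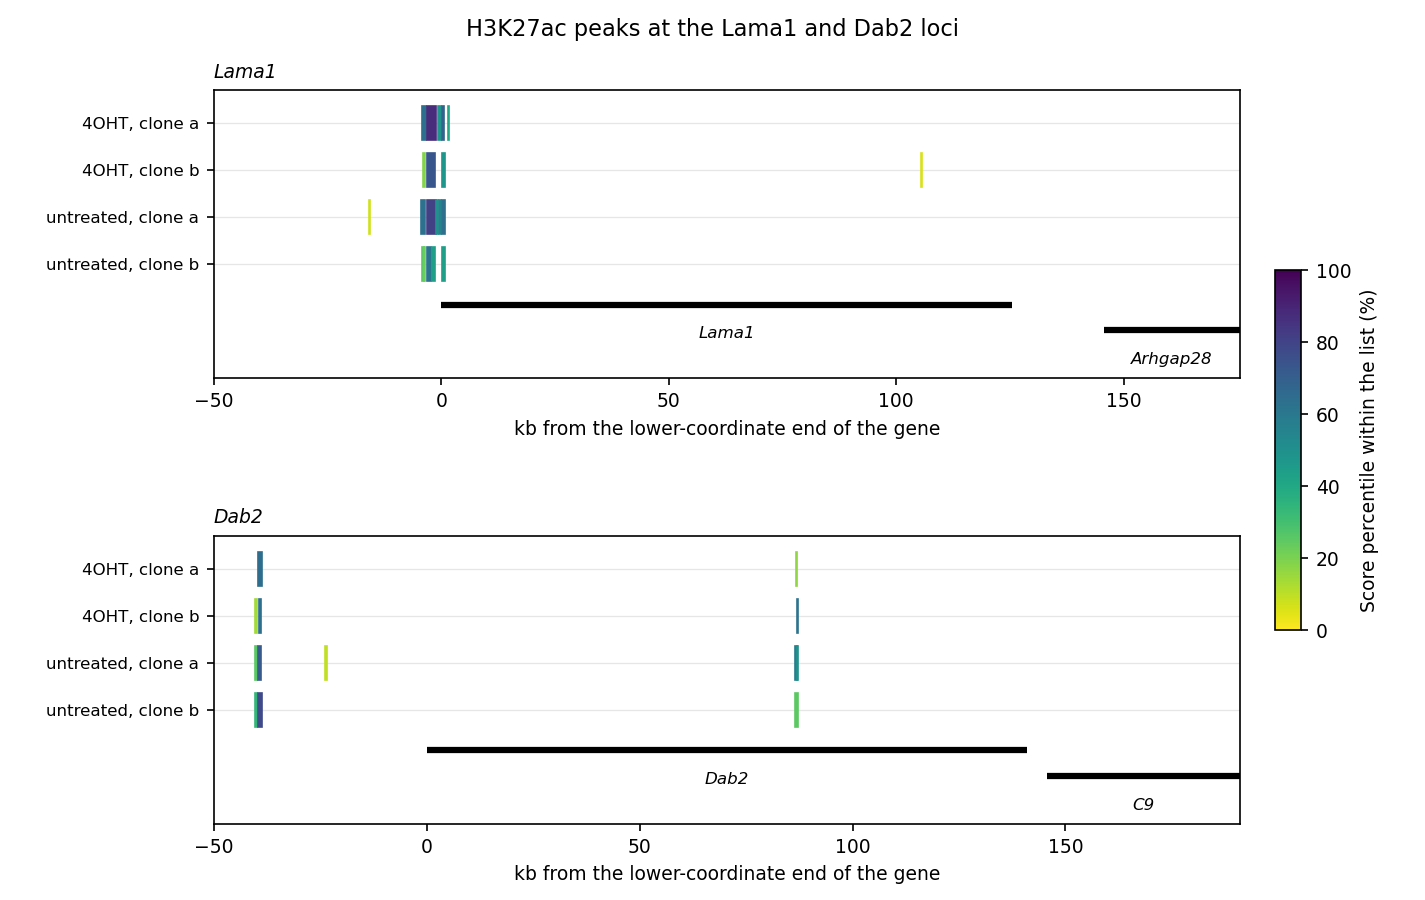
Peaks of each library at the Lama1 and Dab2 loci, by distance in kb from the lower-coordinate end of the gene and coloured by the percentile of the authors' score within each list; black bars are protein-coding genes, and peaks narrower than the outline are drawn at its width. Most Lama1 peaks lie within 5 kb of the gene's lower-coordinate end, and the Dab2 peaks lie upstream and at the second start site.

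Cubilin is an endocytic receptor found in visceral endoderm among other tissues. Its ligands include vitamin B12 with intrinsic factor, albumin and lipoproteins. The Cubn locus had 5.39 and 7.28 kb in treated clones a and b, against 3.45 and 3.04 kb in untreated clones a and b. Both treated libraries were longer than both untreated ones. The difference lay just outside the threshold (log2 change 0.86 ± 0.19 SE, limma adjusted p = 0.0583). It passed with clone as a factor (limma adjusted p = 0.00477), in a fit that called 22.7% of all loci longer. The change was 0.58 in clone a and 1.13 in clone b.

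Most of the added length at Cubn lay in one stretch within the gene, with the rest in short or wider peaks elsewhere in the locus. Between 13412695 and 13418150 on chromosome 2, with midpoints 73.9 to 78.7 kb downstream of the start site, 5 regions covered 1.91 and 2.76 kb in treated clones a and b and nothing in either untreated clone. This stretch too was delimited after its values were seen. Its 2 main regions were adjacent, at 13412695 to 13413649 and 13413739 to 13414588. The first covered 894 and 936 bp in treated clones a and b, at score percentiles of 84.1 and 92.7. The second covered 760 and 850 bp, at percentiles of 91.5 and 88.9. They ranked highest of the locus in both treated lists. The last gained region (13417266 to 13417537) was short, at 258 and 230 bp, and ranked lower, at percentiles of 13.7 and 38.1. The other 2 regions of the stretch were called in treated clone b alone.

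Elsewhere in the Cubn locus the differences per region were smaller. A broad region 121 kb downstream of the start site (13369841 to 13372163) covered 2050 and 1731 bp in treated clones a and b, against 2167 and 1973 bp in the untreated clones a and b, and the groups overlap. Its neighbour (13372544 to 13373002) had 223 and 459 bp in treated clones a and b, against 246 and 0 bp in the untreated clones a and b. No peak lay on the Cubn promoter window (chr2:13491827-13492126), which holds 44.3% G and C and 5 CpG dinucleotides. The window has 1 match to CCGGAA, found in 14.9% of all windows, and none to the other motifs searched. Near the upper-coordinate end of Rsu1, which encodes a protein of integrin adhesions, a region (13270388 to 13271327) covered 649 and 940 bp in treated clones a and b, against 611 and 643 bp in the untreated clones a and b. Beside it (13271576 to 13272129) peaks covered 554 and 428 bp in treated clones a and b, against 426 and 425 bp in the untreated clones a and b. Both were longer in treated cells by small amounts. A further 4 short regions of 200 to 263 bp were called in treated clone b alone, and Trdmt1, an RNA methyltransferase gene, held no region.

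**Figure D5:**
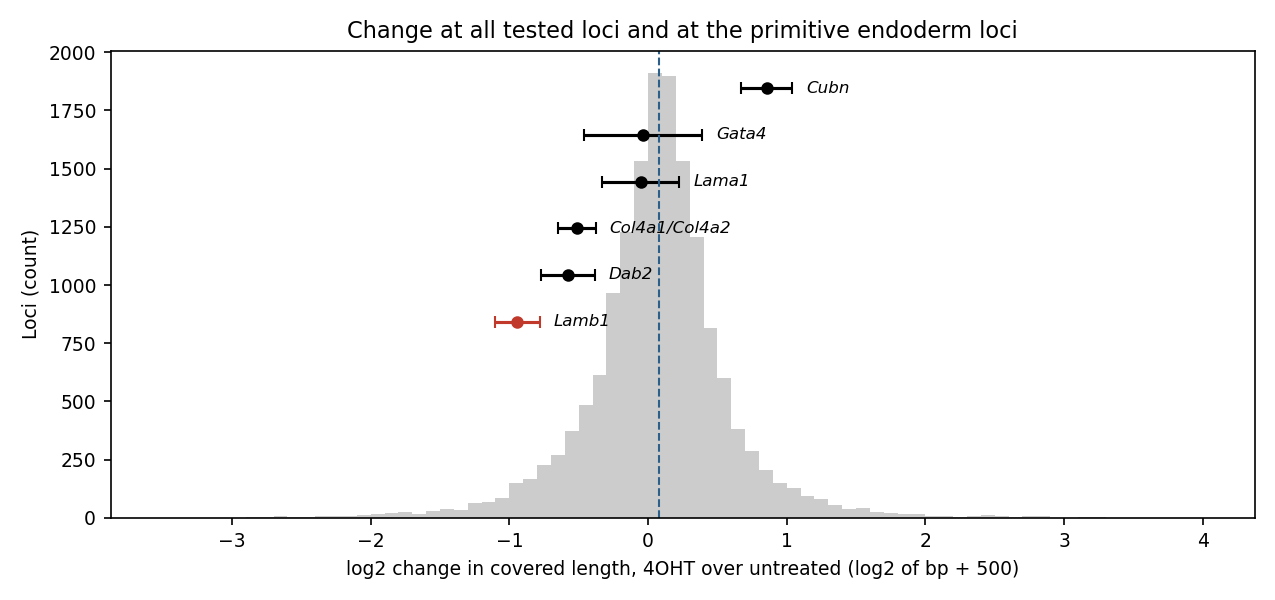
Histogram of the log2 change in covered length, 4OHT over untreated, for all 16048 tested loci, with the median as a dashed line; points with SE bars are the 6 primitive endoderm loci tested, red where the limma adjusted p is under 0.05, and their height carries no value. Lamb1 lies lowest at -0.94 and Cubn highest at 0.86.

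Other genes of the lineage were followed for comparison, with 22 in the list and 12 past the filter on length. In the limma fit 0 of the 12 rose and 0 fell at the adjusted threshold, and at unadjusted p under 0.05 Sparc and Nid2 were longer, a share near the 17.0% of all tested loci, and none was shorter. Sparc, which encodes a collagen-binding matrix protein, had 18.5 and 18.9 kb in treated clones a and b, against 15.2 and 12.04 kb in untreated clones a and b (log2 change 0.46, limma adjusted p = 0.116). Nid2, which encodes the linker protein nidogen 2, had 20.1 and 17.9 kb in treated clones a and b, against 14.8 and 15.1 kb in untreated clones a and b (log2 change 0.33, limma adjusted p = 0.139). Lamc1, the gamma chain partner of Lamb1, had the longest covered length of the list, with 32.3 and 19.8 kb in treated clones a and b, against 40.0 and 27.1 kb in untreated clones a and b, and its groups overlap. The median log2 change of the 12 was 0.02, with 6 positive and 6 negative. With clone as a factor, Sparc, Nid2 and Lrp2, the partner receptor of cubilin, passed as longer, and Lamc1 and Hnf4a, a nuclear receptor of visceral endoderm, as shorter, beside 22.7% and 15.5% of all loci in that fit.

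Several regulators and secreted products of the list had few or no peaks, as Gata6 and Sox17 did. Foxa2, a forkhead factor of endoderm, Thbd and Afp had no peak in any library, as was so for 13.7% of all loci. Sox7, Ihh and Cited1 had 0.251 to 0.356 kb in treated clone b and none in the other libraries, and Amn, which encodes the membrane anchor of cubilin, had 0.886 kb in treated clone b alone. Pth1r, a hormone receptor of parietal endoderm, had 0.812 and 1.99 kb in treated clones a and b, against 0.228 and 0 kb in untreated clones a and b. It was not tested, since its mean lay below the filter. Since no locus of the list passed the limma threshold, the genes named from it here were chosen after their values were seen.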

How the data were processed

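H3K27ac was measured by ChIP-seq in 4 libraries, 2 treated with 4OHT and 2 untreated, with antibody ab4729. Per the submitters' processing notes, Bowtie2, bedtools and MACS2 were used on mm10, with no version or threshold named. Each deposited list holds the authors' peaks of 1 library with a score on no stated scale, used here only within its list. The 4 input libraries are not analysed here.

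Gene intervals and promoter sequences came from RefSeq (GRCm38.p6, the coordinates of mm10), where 6 of the 10 genes had a promoter window; Gata4, Gata6, Sox17 and Lama1 did not. The members and lists were chosen with earlier results of these data known. The base pairs covered by peaks at each locus were fitted with limma, with a trend and the 2 groups as terms. The 2 clones occur in both groups, and their deviations correlated across loci (r = 0.611), so the clone pairs the samples. The main fit does not use this pairing, and its p-values rest on the spread between the 2 clones within each group. With clone as a factor they rest on how far the changes of the 2 clones differ. In both fits limma draws this spread towards a trend over all loci. Named by rule were the 10 members, the other genes in their windows, every gained or lost region and the highest-ranked ones, listed lineage genes past the threshold, and the 3 loci most like Lamb1. Regions outside this rule were named after their values were seen. Windows, filters, pseudocounts, scaling and left-out libraries were varied.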

Additional observations from a re-analysis of the deposited data

Results flagged for a closer look

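At 4 loci the clones differed in direction. The difference between clones was not tested, and the share of all loci with such a difference was not counted. The log2 change in covered length at Gata4 was 0.057 in clone a and -0.13 in clone b. At Lama1 it was -0.12 in clone a and 0.010 in clone b, so at both loci the changes were small. At Gata6 it was 1.15 in clone a and -0.51 in clone b, and at Sox17 -0.66 in clone a and 0.60 in clone b, both from short peaks at loci below the filter on length.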

How the results depend on the processing

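The numbers of loci that passed as longer (642) and shorter (458) became 393 and 278 with 10 kb windows, 160 and 115 in the upper 50% of each list, 129 and 100 for the gene interval alone, an alternative chosen after seeing the data, and 3638 and 2483 with clone as a replicate block. Leaving out each library in turn gave 0 to 405 longer and 0 to 162 shorter. Gained regions (4) numbered 2 in the upper 50% of each list and 4 to 15 with a library left out. Lost regions (3) numbered 5 where 50% of a region had to be covered, 1 with peaks merged within 1000 bp, 5 with 100 kb windows and 5 to 10 with a library left out. The log2 change of Gata4 (-0.04) turned to 0.12 at 10 kb, 0.37 at 100 kb and 0.028 in the upper 50%, and ranged over -0.54 to 0.46 with a library left out. That of Lama1 (-0.05) turned to 0.18 at 100 kb and 0.21 in the upper 50%, and ranged over -0.36 to 0.26. Lamb1 lost its call at 10 kb (-0.56), with no filter (-0.94), in the upper 50% (-0.88) and for the gene alone (-0.50), and ranged over -1.11 to -0.78. Col4a1/Col4a2 passed at 10 kb (-1.48) and with the replicate block (-0.51), as did Dab2 (-0.58) and Cubn (0.86) with the block. The causes were not tested. Dab2 fell below the filter on length at 10 kb, in the upper 50% and for the gene alone, as did Gata4 and Lama1 for the gene alone. A left-out library leaves its group with 1, assumed to vary like the other group. With no reads in the files, the depth is unknown.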
